A study of Mus musculus with 14 samples.

Results

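Among 160144 H3K4me1 sites found in mouse NG3 fibroblasts, 37647 were centred in a later intron of a protein-coding gene. A later intron is here intron 2 or any intron after it in the longest annotated transcript, the one that spans the most genome. A site was kept if its centre lay over 3 kb from every annotated transcription start site (TSS) and in no intron 1 of these longest transcripts. Intron 1 of shorter transcripts and of non-coding genes was not left out. The later-intron sites made up 23.5% of the 160108 sites on chromosomes and 32.5% of the 115800 sites that lay over 3 kb from a TSS. A further 490 sites lay in a later intron of 1 gene but in intron 1 of another, and these were left out.

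NG3 cells are a clone of immortalized mouse embryo fibroblasts (iMEF) in which exon 4 of both Ash2l alleles was deleted by Cre-ER and a lentiviral FKBP12F36V fusion of human ASH2L took the place of the endogenous protein. All samples share this genotype, the control included. H3K4me1 was measured by ChIP-seq without dTAG-13, the PROTAC that sends the fusion protein to degradation, and after 0.5, 2, 4, 8 and 16 h of dTAG-13, with 2 libraries for each of these 6 conditions and 1 input library each of control and 16 h dTAG-13. The deposited table is a single list of peak positions over all samples, so a site may come from any of the conditions, and a change with dTAG-13 cannot be read from it. It holds no read count and no replicate, and the depth of the libraries is not known from it. Expression was not measured in it either, and the fibroblast label could be set only against the marks on marker genes given below.

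H3K4me1 is placed on nucleosomes mainly by the KMT2 methyltransferases, which work together with the WRAD subunits WDR5, RBBP5, ASH2L and DPY30. It is best known as a mark of enhancers, active or poised, and it also flanks promoters. Many enhancers lie inside introns, of the gene they act on or of a neighbour. Intron 1 lies next to the promoter and often holds its own regulatory sequence, whereas later introns extend into the gene body, where other histone marks are laid down during transcription.

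As examples of the sequence under the sites, the central 200 bp of the widest site in each of the 6 genes with the most later-intron sites per kb are given here from GRCm38.p6, on the strand of the gene. In these 6 windows capitals mark any match to the short sequences that are counted further below.
Eif3h, chr15:51803951-51804150, minus strand: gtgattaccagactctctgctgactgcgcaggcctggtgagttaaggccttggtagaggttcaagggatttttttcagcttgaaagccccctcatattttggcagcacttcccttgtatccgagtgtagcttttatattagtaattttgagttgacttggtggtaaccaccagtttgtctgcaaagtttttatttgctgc
Ywhaz, chr15:36780637-36780836, minus strand: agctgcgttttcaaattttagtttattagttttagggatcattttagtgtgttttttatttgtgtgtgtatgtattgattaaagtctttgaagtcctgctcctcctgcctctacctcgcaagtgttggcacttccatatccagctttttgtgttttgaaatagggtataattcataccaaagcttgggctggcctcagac
Rnd3, chr2:51139869-51140068, minus strand: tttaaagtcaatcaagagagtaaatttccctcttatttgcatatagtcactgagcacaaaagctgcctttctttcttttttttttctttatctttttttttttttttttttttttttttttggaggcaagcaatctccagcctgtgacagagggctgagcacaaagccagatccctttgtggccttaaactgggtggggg
Fyb, chr15:6634612-6634811, plus strand: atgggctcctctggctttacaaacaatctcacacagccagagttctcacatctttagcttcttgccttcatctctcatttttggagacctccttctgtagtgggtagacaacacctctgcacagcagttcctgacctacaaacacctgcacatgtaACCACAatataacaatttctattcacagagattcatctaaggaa
Gcnt4, chr13:96943441-96943640, plus strand: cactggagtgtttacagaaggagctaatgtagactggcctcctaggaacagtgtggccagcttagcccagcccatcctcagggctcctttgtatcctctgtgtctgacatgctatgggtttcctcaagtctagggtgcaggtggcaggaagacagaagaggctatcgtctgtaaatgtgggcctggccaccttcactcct
Rabgef1, chr5:130192009-130192208, plus strand: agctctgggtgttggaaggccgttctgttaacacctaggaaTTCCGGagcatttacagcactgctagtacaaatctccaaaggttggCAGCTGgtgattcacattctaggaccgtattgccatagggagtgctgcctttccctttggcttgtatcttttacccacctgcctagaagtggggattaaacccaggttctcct
Of these 6 windows, those of Eif3h, Ywhaz, Rnd3 and Gcnt4 held none of the sequences searched. Fyb had ACCACA, the RUNX sequence read on the other strand, and Rabgef1 had an ETS and an E-box sequence. A further 3 windows show the AP-1 sequence, TGAGTCA or TGACTCA, in capitals, and matches to the other sequences are not marked in them. They are from the widest site with such a match in Pde4d, Lpp and Foxp1, the genes with the most later-intron sites after Fgfr2, and were chosen after their values were seen.
Pde4d, chr13:109665676-109665875, plus strand: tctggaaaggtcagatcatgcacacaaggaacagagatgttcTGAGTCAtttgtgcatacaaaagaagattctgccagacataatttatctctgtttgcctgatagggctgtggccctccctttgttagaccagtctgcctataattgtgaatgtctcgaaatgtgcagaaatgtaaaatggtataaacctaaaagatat
Lpp, chr16:24567631-24567830, plus strand: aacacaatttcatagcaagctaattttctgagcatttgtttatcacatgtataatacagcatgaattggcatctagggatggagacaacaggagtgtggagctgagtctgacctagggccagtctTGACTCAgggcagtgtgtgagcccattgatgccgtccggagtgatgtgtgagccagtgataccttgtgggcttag
Foxp1, chr6:99427391-99427590, minus strand: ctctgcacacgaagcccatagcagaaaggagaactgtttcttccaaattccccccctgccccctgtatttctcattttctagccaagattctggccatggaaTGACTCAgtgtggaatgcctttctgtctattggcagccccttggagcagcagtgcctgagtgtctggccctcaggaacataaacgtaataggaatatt
All 9 windows lie in introns of rank 2 to 5, and the AP-1 match began at base 43, 126 and 103 of the window, respectively.

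Later introns carried fewer sites per length than first introns and more than the sequence between genes. Over 569 Mb of later intron that met the rule, the density was 66.2 sites per Mb (95% counting interval 65.5 to 66.9). First introns had 104 per Mb (103 to 106, 19407 sites) and the sequence between genes 39.8 per Mb (39.4 to 40.1, 48725 sites). The density in later introns was thus 0.636 times that in first introns and 1.66 times that between genes. This order held on each of the 20 chromosomes with sites, and the 3 intervals did not overlap. The intervals cover the counting of sites only, and neighbouring sites are not independent of each other. The bases covered by sites gave the same order, with 5.71% in later introns, 10.1% in first introns and 3.11% between genes.

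The sites in later introns were of common width. Their median was 565 bp (quartiles 336 and 1039 bp), between the 587 bp of first introns and the 538 bp between genes. Under 300 bp lay 20.1% of them and over 2000 bp 7.97%. The nearest other site was at a median gap of 1146 bp, against 757 bp for first-intron sites and 1740 bp for sites between genes, so the spacing followed the density. Of the 37647 sites, 714 (1.90%) were centred in an exon of another annotated transcript, 573 (1.52%) lay in later introns of more than 1 gene and 2965 (7.88%) reached past the ends of their intron. Just inside and just outside the 3 kb limit the sites were alike: between 2 and 3 kb from a TSS later introns held 73.3 sites per Mb with a median width of 572 bp, and between 3 and 4 kb 72.0 per Mb with 597 bp.

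The later an intron came in its transcript, the fewer sites it held per Mb. Intron 2 had 86.5 sites per Mb (84.9 to 88.2), intron 3 had 73.9 (72.1 to 75.7) and intron 4 had 68.8 (66.7 to 71.0). Intron 5 had 57.2 (55.0 to 59.5) and introns 6 to 10 had 59.96 (58.6 to 61.3), and these neighbours were the only pair out of order, with intervals that overlapped. Introns 11 to 20 had 52.0 (50.5 to 53.5) and introns from 21 on 49.3 (47.2 to 51.4), which overlapped as well. Even the last class stayed above the density between genes. A site in the introns of 2 genes is counted here for each. The share of covered bases went from 7.93% in intron 2 to 4.03% in introns from 21 on, while the median width of the sites stayed between 554 and 581 bp. The number of sites went down with rank, and their width hardly changed.

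**Figure D1:**
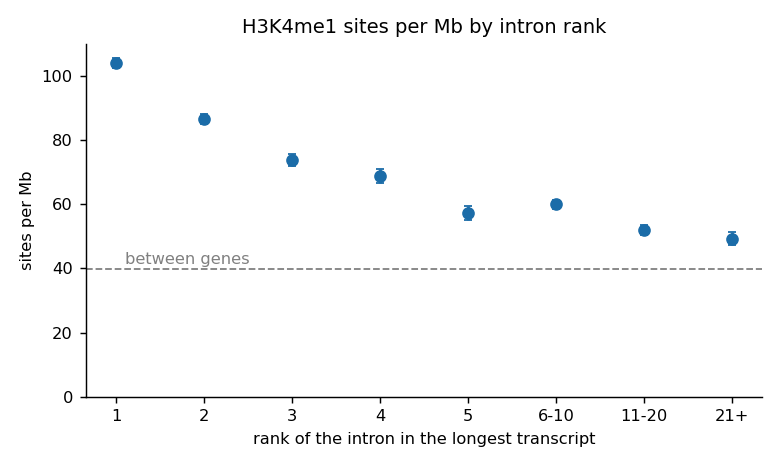
H3K4me1 sites per Mb (vertical axis) by the rank of the intron in the longest transcript (horizontal axis), with intron 1 for comparison. Points are densities over all introns of that rank, bars are 95% counting intervals, and the dashed line is the density between genes. The density goes from 104 in intron 1 to 49.3 in introns from 21 on.

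Intron 2 is on average longer than the introns behind it, with a median of 4229 bp against 1432 bp for introns from 21 on, so rank was also read within classes of length. Intron 2 was the densest rank in each of the 6 length classes, and introns from 11 on were the least dense in each. The gap was narrow in short introns and wide in long ones. Under 5 kb, intron 2 had 61.0 sites per Mb (55.8 to 66.5) and introns from 11 on had 45.5 (43.5 to 47.5). At 50 to 100 kb, intron 2 had 117 (113 to 122) and introns from 11 on had 59.6 (55.5 to 63.9). In introns of 100 kb or more the 2 values were 66.5 (64.2 to 68.8) and 33.4 (30.0 to 37.0).

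Length alone gave a rise and then a fall. Later introns under 5 kb held 49.0 sites per Mb (47.7 to 50.3), those of 5 to 10 kb 62.4 (60.6 to 64.3) and those of 10 to 20 kb 72.8 (70.9 to 74.7). The density went on to 80.3 (78.6 to 82.1) at 20 to 50 kb and to 85.3 (83.3 to 87.3) at 50 to 100 kb, with no overlap of the intervals from class to class. In the 741 introns of 100 kb or more it was 57.4 per Mb (56.1 to 58.7). Introns under 10 kb as a whole had 0.942 times the density of those of 100 kb or more, an order that turned with sites of at least 500 bp (1.04), by bases covered (1.07) and with the transcript of greatest summed exon length (1.00). With only whole sites inside an intron counted, the ratio went the other way, to 0.715. These longest introns held 7276 sites in 127 Mb, and 581 of the 741 held at least 1. Their sites were also the narrowest, with a median of 529 bp against 569 to 597 bp in the other classes.

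The distance from the start of the transcript showed a hump of the same kind. Later introns had 58.9 sites per Mb at 3 to 10 kb from their own TSS, 81.0 (79.3 to 82.8) at 50 to 100 kb and 52.3 (51.3 to 53.4) at 200 kb or more. At equal distance intron 2 was still denser than introns from 11 on, with 105 (101 to 109) against 43.1 (40.1 to 46.2) at 20 to 50 kb. At 200 kb or more the ranks came together: intron 2 had 53.6 (50.8 to 56.6), introns 6 to 10 had 57.2 (54.9 to 59.5) and introns from 11 on had 48.9 (47.1 to 50.8). The full order of the 4 groups of rank was kept at 20 to 50, 50 to 100 and 100 to 200 kb, in the last with overlapping intervals for all but introns from 11 on. Near the start it was not, with 37.8 (34.2 to 41.8) in introns 6 to 10 and 41.2 (33.1 to 50.6) in introns from 11 on at 10 to 20 kb, though these intervals overlapped.

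**Figure D2:**
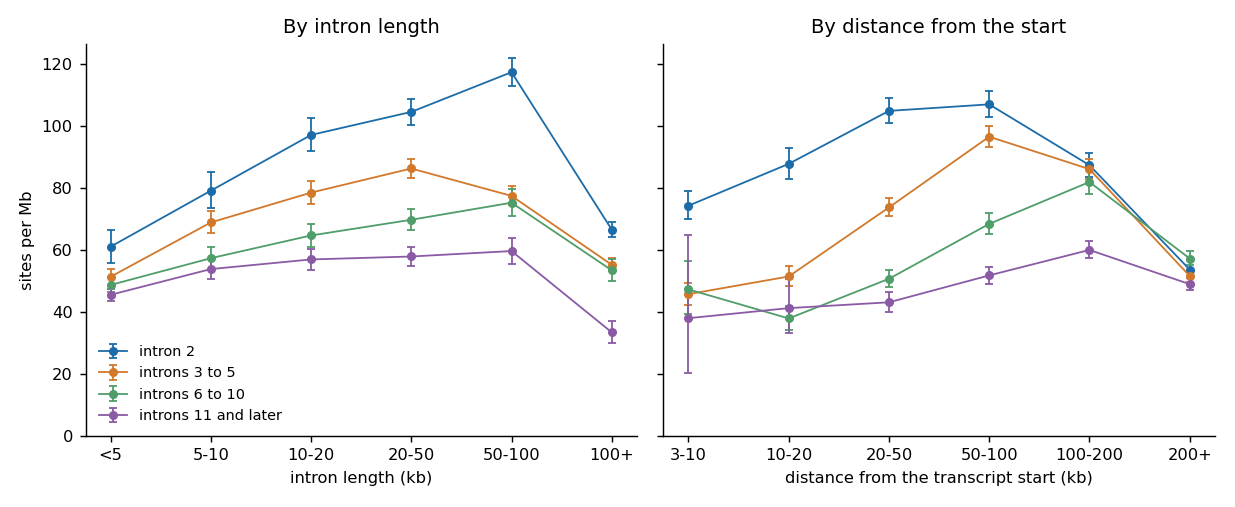
Later-intron sites per Mb (vertical axis) by intron length (left, kb) and by distance from the start of the transcript (right, kb), for 4 groups of intron rank. Points are densities and bars are 95% counting intervals. Intron 2 lies highest in each length class, and at 200 kb or more from the start the 4 groups lie between 48.9 and 57.2 sites per Mb.

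Within an intron, sites were fewer near the ends. Within 0.25 kb of the 5' end the density of site centres was 48.3 per Mb (45.3 to 51.4), and within 0.25 kb of the 3' end 44.5 (41.7 to 47.4). At 5 to 10 kb from the ends it was 73.7 (71.0 to 76.5) and 80.8 (77.9 to 83.7). The lower value near the ends includes the short introns, which have no interior, and their lower density. In introns of at least 10 kb, cut into 10 equal parts, the density was lowest in the first part with 63.3 per Mb (60.7 to 65.9), then 70.0 and 68.7, and lay between 72.4 and 76.0 in the others. The last intron of transcripts with at least 3 introns had 59.6 sites per Mb (57.5 to 61.8), less than the 67.2 (66.5 to 67.9) of the inner later introns.

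Most later introns held no site. Of 106586 later introns with sequence that met the rule, 14639 (13.7%) held at least 1 site, 1797 (1.69%) at least 5 and 621 (0.583%) at least 10. These 621 introns nevertheless held 11044 of the counted sites, or 28.9%. Among the fullest were intron 2 of Fgfr2 with 224 sites, intron 3 of Pde4d with 115, intron 3 of Gm37240 with 99 and intron 7 of Rad51b with 82. The first and the third of these are special cases of annotation. Intron 2 of the Fgfr2 transcript is 2.91 Mb long and encloses 29 other protein-coding genes, and intron 3 of Gm37240, a predicted gene, is 1.24 Mb long and encloses 4. The introns of Pde4d (0.708 Mb) and Rad51b (0.330 Mb) enclose no other protein-coding gene.

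At the level of genes, 6157 of 14521 genes with later intron in reach (42.4%) carried at least 1 site there. For 7895 of them at least 10 kb could be counted, and of these 5136 (65.1%) had a site. Their median was 0.0441 sites per kb, the upper quartile 0.102, the 95th percentile 0.222 and the highest value 0.555. The 500 genes with the most sites held 46.3% of the sites in 26.6% of the length.

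The 15 genes with the most sites per kb had between 10.2 and 51.0 kb of later intron. Eif3h, a subunit of translation initiation factor eIF3 (chr15:51786558-51865523), came first with 24 sites in 43.2 kb, 0.555 per kb, and 21 of the 24 lay in its intron 2. Ywhaz, the 14-3-3 zeta protein, had 9 sites in 16.3 kb (0.554 per kb). Rnd3, a small GTPase that loosens actin stress fibres, had 7 in 13.3 kb (0.526 per kb). Fyb, an adaptor protein of T cells and platelets, had 10 in 19.4 kb (0.515 per kb) although its own promoter carried no site. Gcnt4, a glycosyltransferase, had 5 in 10.2 kb, and Rabgef1, an exchange factor for Rab5, had 6 in 12.5 kb.

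These first 6 genes lay between 0.480 and 0.555 sites per kb, more than 10 times the median of all genes. The next 9 were close behind, from 0.476 to 0.446 per kb. They were Eif4e, the cap-binding protein of translation (9 sites in 18.9 kb), 1810013L24Rik (10 in 21.2 kb), the ankyrin repeat gene Ankrd50 (10 in 21.4 kb), Chka, choline kinase alpha (5 in 10.8 kb), and Rgmb, a BMP co-receptor (5 in 10.9 kb). Sf3b3, a subunit of the spliceosomal SF3B complex, had 10 sites in 22.2 kb, Fam198b 23 in 51.0 kb, Skil, which encodes the SMAD corepressor SnoN, 8 in 17.8 kb, and Cdr2 5 in 11.2 kb. The order depends on how sites are delimited: with sites within 1 kb merged, 3 of the first 20 genes were still among the first 20. With so few sites per gene neighbours in this order cannot be told apart, and 3 of the 15 genes, Eif3h, Ywhaz and Fyb, lie on chromosome 15, the autosome with the highest density (89.2 sites per Mb). A site at the gene's promoter, within 1 kb of its most upstream TSS, was found for 13 of the 15. Among all 7895 genes with at least 10 kb, 5991 had one, so this is near the common share.

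In these genes the sites stood close together. In Eif3h the 24 sites were between 200 and 2957 bp wide, with a median of 494 bp, and their centres followed each other at a median step of 1663 bp over 55.1 kb. The step was 1577 bp in Ywhaz, 1856 bp in Rnd3, 1688 bp in Fyb, 1770 bp in Gcnt4 and 766 bp in Rabgef1. The 6 genes were covered by sites to 27.0 to 56.8% of the counted bases.

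The largest numbers of sites were found in very long genes. Fgfr2, a fibroblast growth factor receptor, had 224 in 2140 kb by its long transcript. With the transcript of greatest summed exon length, which spans 0.104 Mb, it had 24 sites in 60.8 kb, 0.394 per kb in place of 0.105. Pde4d, a cAMP phosphodiesterase, had 150 sites in 1016 kb, Lpp, a LIM protein of focal adhesions, 126 in 498.5 kb, and the forkhead factor gene Foxp1 120 in 437 kb. Gm37240 had 106, the zinc finger factor gene Mecom 105, Rad51b, which acts in homologous recombination, 105, Atxn1 100, Erc2, a protein of the presynaptic active zone, 95 and Dlc1, a GTPase activating protein, 89. All 10 had a site at their promoter, as had 5991 of the 7895 genes with at least 10 kb. The densities of the 10 ran from 0.0979 per kb in Gm37240 to 0.274 in Foxp1.

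Other genes of similar length carried no site at all. The longest later-intron sequence without any was that of Csmd1, a large membrane protein of the brain, with 1263 kb. Others were Il1rapl1 on chromosome X (1120 kb), Nell1 (858 kb), the glutamate receptor gene Grm8 (827 kb) and the contactin gene Cntn4 (818 kb). Ptprt, a receptor tyrosine phosphatase, had none in 818 kb, Agbl1 none in 786 kb, Sntg1 none in 764 kb and the glutamate receptor gene Grid1 none in 726 kb. Of these 9 genes, 7 had no site at the promoter either, and Grm8 and Grid1 had one. Of all 7895 genes with at least 10 kb, 5991 had one.

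**Figure D3:**
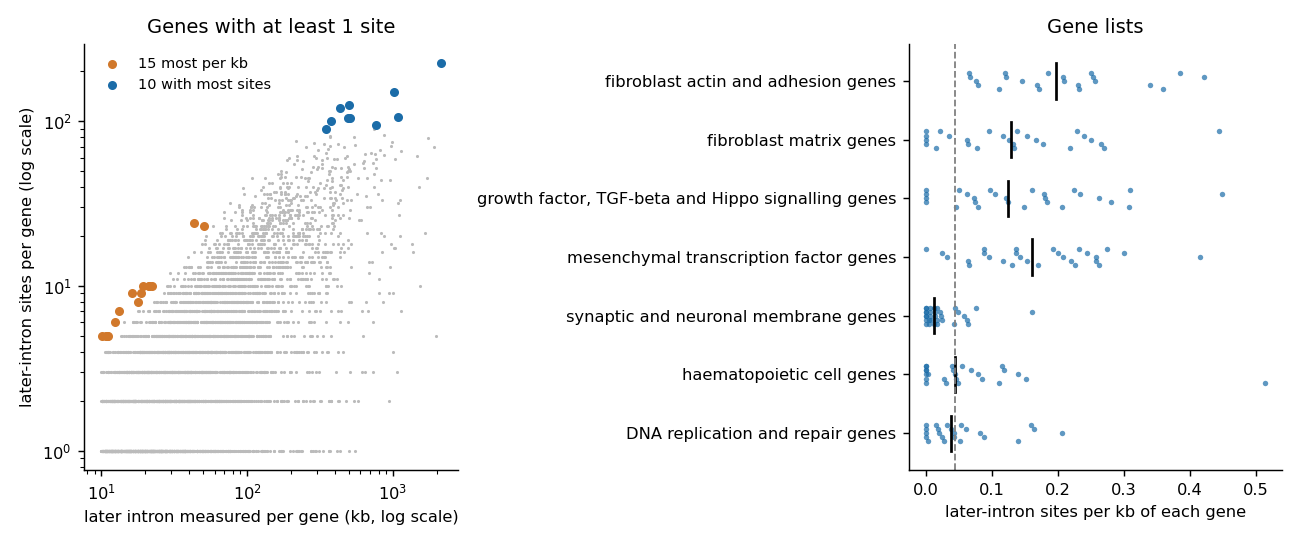
Left, number of later-intron sites of each gene (vertical axis, log scale) against the length of later intron counted (kb, log scale) for genes with at least 10 kb and at least 1 site, with the 15 genes of most sites per kb in orange and the 10 genes of most sites in blue. Right, sites per kb of each gene with at least 10 kb in 7 gene lists (dots), with the list median as a bar and the median of all 7895 genes, 0.0441, as a dashed line. The 22 actin and adhesion genes with at least 10 kb all lie to the right of the dashed line, and 25 of the 32 synaptic genes do not.

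Sites per kb and bases covered did not single out the same genes. Across the 7895 genes both measures went together (Spearman's correlation 0.946, a description across genes, which are not independent), but at the top they parted. None of the 20 genes with the most sites per kb was among the 20 with the largest share of bases covered. Smad7, an inhibitory SMAD of TGF-beta signalling, had 96.4% of 15.9 kb covered by sites but only 1 site centred there. Tpm1, a tropomyosin of actin filaments, had 82.1% covered with 4 sites, Rara, the retinoic acid receptor alpha, 81.9% with 1, and Myh9, non-muscle myosin heavy chain, 81.9% with 2. Smad3, a TGF-beta effector, had 80.1% covered by sites of which 0 were centred in its later introns. These 5 genes were picked for their covered share. In all, 55 genes were covered over 50%, against a median of 2.40%, and 181 genes without a site of their own had bases covered by sites centred elsewhere.

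Some sites in later introns were of extreme width. The widest later-intron site spanned 20625 bp at chr11:117303941-117324565 in Sept9, a septin of the cytoskeleton. The next were in Col5a1, a fibrillar collagen (19948 bp), Csf1, a macrophage growth factor that fibroblasts secrete (18640 bp), Wdr1, an actin disassembly factor (18057 bp), and Bahcc1 (17195 bp). The widest first-intron site was 50106 bp.

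Genes of fibroblast structure carried many more later-intron sites per Mb than genes of neurons. The neuronal genes were also longer, with 23.3 Mb of later intron in 32 genes. Whether length accounts for the difference was not tested. In 30 actin and adhesion genes there were 544 sites in 2.49 Mb, or 219 per Mb (201 to 238), and all 22 genes with at least 10 kb had a site and lay above the median of all genes. Of all 30 genes 26 had a site. For comparison, 42.4% of all 14521 genes with later intron to count and 65.1% of the 7895 with at least 10 kb had a site. Here and in the lists below, single genes are named and set against the median only with at least 10 kb. Cald1, the actin-binding caldesmon, had 0.421 sites per kb, the crosslinker Actn1 0.385 and Tpm1 0.359, and Flnc (0.0670) and Myh9 (0.0652) were lowest. In 31 matrix genes there were 169 per Mb (151 to 188). Col1a2 of type I collagen led with 0.445 per kb, before Col4a2 (0.270) and Fbn1, fibrillin-1 (0.266). Of the 26 genes with at least 10 kb, Col6a2, Itgb1, Lamc1 and Loxl2 had none, and 19 lay above the median. Of all 31 matrix genes 23 had a site.

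The lists of regulators were dense as well. In 30 mesenchymal transcription factor genes there were 166 sites per Mb (155 to 178), and 25 of 28 lay above the median of all genes. Of all 30 genes 28 had a site, against 42.4% of all genes with later intron to count. Hmga2, an architectural chromatin protein, had 0.416 per kb, Ets1 0.300 and Foxp1 0.274, whereas Foxp2 had 0.0243 and Tshz2 none. In 30 genes of growth factor, TGF-beta and Hippo signalling there were 142 per Mb (130 to 154), with 23 of 27 above the median. Skil had 0.448 per kb, Tead1, a partner of YAP, 0.310 and the receptor gene Igf1r 0.309. Of the 27 genes with at least 10 kb, Axl, Lats1, Smad3 and Smurf2 had no site, and of all 30 signalling genes 23 had a site. Without Fgfr2, whose long intron holds 224 of the 514 sites, this list had 290 sites in 1.49 Mb, or 194 per Mb (173 to 218).

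Lists of other cell types and of housekeeping function lay lower in sites per Mb than the lists above. In 32 synaptic and neuronal membrane genes there were 423 sites in 23.3 Mb, or 18.2 per Mb (16.5 to 20.01), which is below the density between genes. Of these 32 genes, all with at least 10 kb, 24 had at least 1 site, led by Kcnd2 (0.161 per kb) and Syt1 (0.0758). The other 8 had none, among them Csmd1. Of all genes with at least 10 kb, 65.1% had a site. The density of this list was thus low, but not its share of genes with a site. In 30 haematopoietic genes there were 47.3 per Mb (39.4 to 56.4), and 13 of 25 lay above the median. Fyb, with 0.515 per kb, was the densest of the list. Spi1 had 0.140, and 7 of the 25 genes with at least 10 kb had none, among them Btk and Vav1. Of the 29 genes with later intron to count 18 had a site, against 42.4% of all such genes. In 30 genes of DNA replication and repair there were 75.4 per Mb (64.3 to 87.9), but 105 of the 163 sites were those of Rad51b, and without it the list had 35.0 per Mb (26.6 to 45.3). Rpa1 (0.164 per kb) and Polk (0.160) followed. Of the 23 genes with at least 10 kb, Atm, Atr, Mcm6 and Parp1 had none, and 9 lay above the median. Of the 28 replication and repair genes with later intron to count 19 had a site, again against 42.4% of all such genes. By this count neither the haematopoietic nor the repair list lay below all genes. The lists are descriptions of genes picked with earlier results in view, and no test was made of them. The 2 fibroblast structure lists lay above the median of all genes and the neuronal list below it. The median of the haematopoietic list (0.0442 per kb) was that of all genes (0.0441). As the lists were picked in this way, their order is not an independent check of the cell label.

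Later introns were also denser where the gene's promoter carried a site. In 10385 genes with a promoter site there were 75.9 later-intron sites per Mb (75.1 to 76.7), and in 4136 genes without one 35.9 (34.9 to 36.9), a ratio of 2.12. The ratio was above 1 in each class of rank and length. It was 2.41 in intron 2 and 1.70 in introns from 21 on, and it was 1.37 in introns under 5 kb and 2.65 in those of 50 to 100 kb. In genes without a promoter site the density lay between 29.6 and 41.5 over the classes of rank, with 41.5 in intron 2 and 33.4 from intron 21 on, and between 30.4 and 38.4 over those of length. In genes with a promoter site it went from 99.9 to 56.7 over the same ranks.

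First and later introns of the same gene could be set side by side in 2779 genes with at least 10 kb of each. Later introns were less dense in 1559 (56.1%), denser in 891 (32.1%), and in 329 (11.8%) neither held a site. Spearman's correlation between both densities was 0.470 across these genes. Cald1 had 32 sites in 76.0 kb of later and 31 in 54.5 kb of first intron, so that its later introns were less dense, whereas in Fyb 2 sites lay in 22.6 kb of first and 10 in 19.4 kb of later intron.

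Chromosome X stood apart from the autosomes. It had 14.1 later-intron sites per Mb, against 61.3 on chromosome 4, the lowest autosome, and a median of 67.3 over 19 autosomes. First introns on X had 41.8 per Mb, so the ratio of later to first introns was 0.336 there and between 0.564 and 0.763 on the autosomes. The median width of the X sites was 413 bp, below the 524 to 645 bp of the autosomes. Of the 9 long genes without a site named above, only Il1rapl1 lies on X.

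The sequence at the centre of the sites had much the same composition in each place. In the central 200 bp of later-intron sites the median GC content was 48.0%, as in first introns and between genes, and it was 41.5% in 242367 windows of later intron without a site, taken every 2 kb. Repeats, the soft-masked bases of the assembly, made up 16.4% of the bases in later-intron sites, 18.7% in first-intron sites, 18.3% between genes and 31.1% in the windows without a site. CpG was rare throughout, at 0.203 of the number expected from base content in later-intron sites and 0.181 in windows without a site.

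Of 6 short sequences of transcription factors searched on both strands, that of AP-1 differed most between sites and their surroundings. TGAGTCA, the sequence of FOS and JUN dimers, lay in the central 200 bp of 3867 later-intron sites, 10.3% (95% Wilson interval 9.97 to 10.6%). Windows without a site held it in 2.90% (2.84 to 2.97%), a ratio of 3.54 between sites and windows, and this ratio lay between 2.74 and 4.11 on the 20 chromosomes. The windows without a site had the lower GC content, so the shares were also taken within classes of GC. The ratio was then 2.99 below 40% GC, 2.81 at 40 to 45%, 3.46 at 45 to 50% and 3.83 at 50% or more. Of all 160105 sites with a full window 9.70% held the AP-1 sequence, with 8.76% (8.37 to 9.17%) in first introns and 11.9% (11.6 to 12.2%) between genes, so later introns lay between the other 2 classes with no overlap of the intervals.

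The other sequences were less set off. CAGCTG, an E-box of basic helix-loop-helix factors, was in 13.3% of later-intron sites and 7.08% of windows without a site. CCGGAA of ETS factors was in 2.14% and 1.29%, GGAATG of TEAD factors in 14.9% and 10.4%, and TGTGGT of RUNX factors in 17.99% and 14.0%. TGACGTCA of CREB and ATF factors was rare, with 0.197% and 0.0932%. The E-box sequence is its own reverse complement, as is that of CREB, and none of the 6 contains another. Shorter sequences occur more often by their length alone, so shares are compared only between classes. Along the sites, the AP-1 share was 10.1% in the 200 bp downstream of the centre by coordinate and went down to 3.47% at 2.8 to 3 kb, near its level in windows without a site. A match is a description of the letters and does not show that a factor was bound.

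AP-1 sequences were most frequent in sites that stood alone. Among the later-intron sites with another site within 1 kb, 47.3% of all, 7.52% (7.15 to 7.92%) held the AP-1 sequence. The share was 11.4% (10.9 to 12.03%) at gaps of 1 to 5 kb, 14.2% (13.4 to 15.0%) at 5 to 20 kb and 16.1% (14.4 to 17.97%) at 20 kb or more. First-intron sites rose as well, from 6.99% at under 1 kb to 18.2% (14.3 to 22.8%) in the 319 sites at 20 kb or more. Sites between genes rose from 8.90% to 14.7% (14.0 to 15.4%) at 5 to 20 kb. At 20 kb or more they had 15.3% (14.1 to 16.4%), with overlapping intervals. At under 1 kb and at 5 to 20 kb the 3 places lay closer together than over all gaps. At 1 to 5 kb they were about as far apart as over all gaps, and their intervals did not overlap. At 20 kb or more they were not clearly closer either, first-intron sites had the highest share, and all intervals overlapped. At under 1 kb the interval of later-intron sites overlapped that of first-intron sites (6.53 to 7.48%) and lay below that of sites between genes (8.51 to 9.31%), at 1 to 5 kb it lay between those of both, and at 5 kb or more it overlapped both. The median GC content of the later-intron sites in all these gap classes was 47.5 to 48.5%.

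The genes with the most sites per kb were poor in the AP-1 sequence. Sites in such genes stand close together, so this overlaps with the trend by gap above, and both were not told apart. None of the 61 sites in the first 6 genes of that order held it in the central 200 bp, where the Wilson interval reaches up to 5.92%, and of the 146 sites in the first 15 genes 6 did (4.11%, 1.90 to 8.68%). Over all genes with at least 10 kb the share went from 14.0% (13.04 to 15.1%) in genes under 0.05 sites per kb to 5.91% (4.88 to 7.14%) in genes of 0.3 per kb or more. The sites of a gene share their surroundings, so these intervals are too narrow. With rank the share rose a little, from 9.43% (8.89 to 9.99%) in intron 2 to 11.3% (10.6 to 12.1%) from intron 11 on. By the width of the site it was lowest at 2000 bp or more, with 8.62% (7.67 to 9.68%). It was highest at 300 bp to under 500 bp, with 10.99% (10.4 to 11.7%), and these intervals did not overlap. Sites under 300 bp had 9.42% (8.78 to 10.1%).

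**Figure D4:**
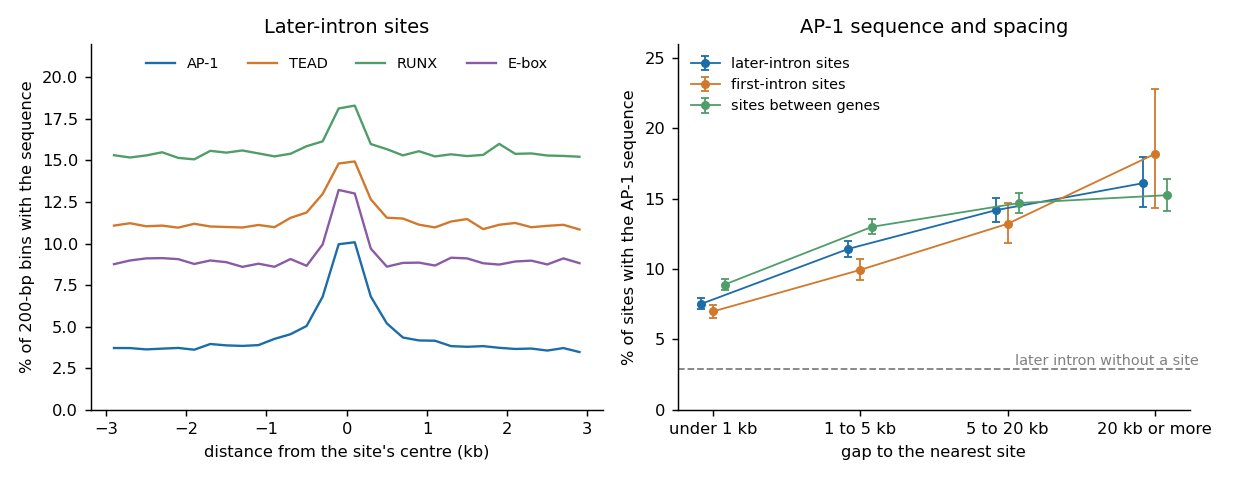
Left, percent of 200-bp bins that hold the AP-1, TEAD, RUNX or E-box sequence, by distance from the centre of the later-intron sites (kb). Right, percent of sites with the AP-1 sequence in the central 200 bp, by the gap to the nearest other site, for later-intron sites, first-intron sites and sites between genes, with 95% Wilson intervals as bars and the share in later intron without a site, 2.90%, as a dashed line. Later-intron sites rise from 7.52% at gaps under 1 kb to 16.1% at gaps of 20 kb or more.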

How the data were processed

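H3K4me1 ChIP-seq was done on NG3 cells without dTAG-13 and at 5 times after its addition. Per the study's methods and the labels, the authors used Trim Galore for adapter trimming, BWA for alignment (mm10) and SAMtools for filtering, used Picard to join replicates, and called peaks with MACS2 in its broad mode. Tool versions, thresholds, whether peaks were called on the joined replicates and the merging of peaks across times are not given in the sources used here. The deposited table gives positions in bases (chromosome, start, end) for each site of 1 pooled set. It holds no fold change, p-value, read count or value per library, so the depth behind a site is unknown and no comparison between times or replicates was made.

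Introns and TSSs were taken from GENCODE M21 on GRCm38.p6 (mm10), and the study's methods name release M25. The longest transcript of a gene was the one with the largest genomic span. Lengths were counted over bases that met the same rule as the site centres, without assembly gaps and chromosome Y. Sites per Mb carry exact Poisson 95% intervals and shares Wilson 95% intervals, which cover counting error only. Per gene, at least 10 kb of later intron was required. Short sequences were searched on both strands in the central 200 bp of each site and in later-intron windows of the same length taken every 2 kb. Python 3.11.15 with numpy 2.4.6 and scipy 1.17.1 was used, and the assignment of sites to introns was tested on simulated data.

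Named were the 15 genes with the most sites per kb, the 10 with the most sites, the 10 longest without a site, the hosts of the 5 widest sites and of the 5 fullest introns, and from each gene list up to 3 genes of highest and 2 of lowest density. Genes named for covered bases and the AP-1 windows were chosen after their values were seen, and tied genes at 0 are all or in part named. Some genes that this rule picks are not reported here. The sites, gene lists and tests of settings were chosen with earlier results of these data known. The alternatives were another choice of longest transcript, TSS limits of 1 and 5 kb, TSSs of protein-coding transcripts only, whole sites inside an intron, sites of at least 500 bp, merging within 1 kb, overlapping genes left out, bases covered in place of sites, other window and length limits, and, added after seeing the data, protein-coding transcripts only and chromosome X left out.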

Additional observations from a re-analysis of the deposited data

How the results depend on the processing

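No paired analysis was possible because sites carry positions alone, with nothing measured for a single replicate. Under the alternatives tried, later introns stayed less dense than first introns (ratio 0.563 to 0.721), intron 2 stayed denser than introns from 11 on (1.52 to 1.92), and genes with a promoter site stayed denser than genes without (1.94 to 2.37). With sites of at least 500 bp only, 21136 later-intron sites were left, at 37.2 per Mb, with a median width of 956 bp, since narrower sites are removed. The median width was 785 bp with sites within 1 kb merged and 541 bp with whole sites inside an intron. The ratio of introns under 10 kb to those of 100 kb or more, 0.942, went to 1.04 with sites of at least 500 bp, 1.07 by bases covered and 1.00452 with the transcript of greatest summed exon length. It went down to 0.715 with whole sites inside an intron, and the cause of these shifts was not tested. The AP-1 share was 5.11% in the central 100 bp and 19.0% in the central 400 bp, as the window is shorter or longer. Of the 20 genes with the most sites per kb, 5 were among the first 20 with a minimum of 5 kb, 8 with 20 kb, 3 with sites within 1 kb merged and 0 by bases covered. With the other choices of longest transcript 15 and 19 were. Depth is unknown and may set which weak sites were found.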
